A study of Mus musculus with 6 samples.

Results

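The acyl-CoA thioesterases of the Acot family were followed in the liver of mice lacking ACBP, the acyl-CoA binding protein encoded by Dbi, and of wild-type mice. The genes examined were Acot1, Acot2, Acot3, Acot4, Acot7, Acot8, Acot12 and Acot13. They were taken by gene symbol in the platform annotation, which assigns 12 probe sets to these 8 genes alone, out of 45037 probe sets and 18193 genes with 1 symbol on the array. All 8 genes had at least 1 probe set called Present on 3 or more of the 6 arrays, and 10 of the 12 probe sets passed that filter.

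Both groups were C57BL/6JBomTac mice of 21 days, taken in the fed state, of the genotypes wildtype and ACBP-/- (KO). Each genotype gave 3 arrays, and each array held equal amounts of liver RNA pooled from 5 mice, so the spread between arrays is that of pool means. Whether the deletion was restricted to a tissue, and how it was made, is not stated in the labels. Values are MAS5 signals on the log2 scale, and levels of different probe sets are not compared, because probes differ in how strongly they bind.

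Acyl-CoA thioesterases cleave acyl-CoA esters into a free fatty acid and coenzyme A, the reverse of what acyl-CoA synthetases do. They thereby set how much of a cell's coenzyme A is tied up in esters. Members work in different compartments. In mouse, Acot1 is cytosolic, Acot2 mitochondrial, and Acot3 and Acot4 peroxisomal; these 4 type I enzymes are close relatives encoded side by side and are known targets of the fatty acid receptor PPAR alpha in liver. Acot7, Acot8, Acot12 and Acot13 belong to the structurally unrelated type II enzymes. ACBP binds long-chain acyl-CoA esters, the substrates of several of these enzymes.

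The promoters of the 3 genes that changed most, Acot1, Acot3 and Acot4, are shown with that of Acot12, whose signal moved little. Each line gives the 250 bases before the start site, 5′ to 3′, from RefSeq in build GRCm38.p6, all on the plus strand. Capitals mark every CCAAT box on either strand (CCAAT or ATTGG) and the closest match to a PPAR response element where it had at most 3 mismatches.
Acot1, chr12:84009252-84009501: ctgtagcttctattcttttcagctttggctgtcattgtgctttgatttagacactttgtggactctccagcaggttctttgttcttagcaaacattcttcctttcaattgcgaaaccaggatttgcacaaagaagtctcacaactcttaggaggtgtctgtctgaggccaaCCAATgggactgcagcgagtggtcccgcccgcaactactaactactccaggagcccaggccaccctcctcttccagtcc
Acot3, chr12:84051894-84052143: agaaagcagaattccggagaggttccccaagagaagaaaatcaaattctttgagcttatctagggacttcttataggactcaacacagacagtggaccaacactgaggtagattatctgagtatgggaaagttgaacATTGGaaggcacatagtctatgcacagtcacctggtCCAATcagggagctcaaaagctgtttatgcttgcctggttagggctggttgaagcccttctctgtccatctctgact
Acot4, chr12:84038129-84038378: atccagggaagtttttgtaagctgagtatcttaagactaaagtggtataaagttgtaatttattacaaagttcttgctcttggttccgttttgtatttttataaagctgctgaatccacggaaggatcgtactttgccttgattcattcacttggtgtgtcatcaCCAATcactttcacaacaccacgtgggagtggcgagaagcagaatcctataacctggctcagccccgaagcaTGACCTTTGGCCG
Acot12, chr13:91741271-91741520: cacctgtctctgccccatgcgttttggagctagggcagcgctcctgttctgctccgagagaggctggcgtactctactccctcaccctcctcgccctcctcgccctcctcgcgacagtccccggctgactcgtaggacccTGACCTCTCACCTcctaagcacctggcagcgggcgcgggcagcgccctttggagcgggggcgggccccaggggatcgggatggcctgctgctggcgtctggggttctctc

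The arrays were alike in general quality, with 48.4% to 51.1% of probe sets called Present and median signals of 31.1 to 33.4. Signal of the actin control at its 3′ end over that at its 5′ end came to 2.18 to 2.19 for wild-type pools, compared with 2.34 to 2.35 for knockout pools. The same ratio of the Gapdh control overlapped, at 0.874 to 0.916 for wild-type and 0.906 to 0.909 for knockout pools. The part of the actin difference in the results was not tested. Dbi, the deleted gene, read 15.94, 15.74 and 15.77 in wild-type pools and 5.37, 5.32 and 5.15 in knockout pools at its brightest probe set, which was called Present on only 1 of the 3 knockout arrays. It fell there by 10.54 on the log2 scale (adjusted p = 2.27e-22 by limma). At the other 3 Dbi probe sets, all with the suffix _x_at and called Present on every array, the log2 fold changes ran from -4.08 to -3.91. The hepatocyte markers with a probe set, 9 of 10 listed, were all called Present, and their summed linear signal was 114000 to 115000 in both genotypes. Knockout pool 1 stood apart at the Y-linked gene Eif2s3y, with 1.16 against 6.97 to 8.69 in the other pools, and at Kdm5d, with 2.29 against 4.39 to 6.57. At Uty, also Y-linked, it read 5.87, within the 5.65 to 6.33 of the others. The X-linked transcript Xist varied within both genotypes, from 9.14 to 11.04 in wild-type and from 9.04 to 11.14 in knockout pools. Xist, highest in knockout pool 1 at 11.14, thus also varied among the other pools. The low readings of Eif2s3y and Kdm5d were limited to knockout pool 1. The part of either pattern in the results was not tested. Values without knockout pool 1 are given for Acot1, Acot2, Acot3 and Acot4 and for the counts of the related gene lists. For the other members, ranges with single pools left out are given at the end.

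Transcripts of 3 thioesterases were higher in knockout liver, and they were all of the type I group: Acot3 and Acot4 of the peroxisome and Acot1 of the cytosol. Of the 8 genes, 3 rose and 0 fell by limma at an adjusted p below 0.05, each gene read at its brightest tested probe set. Of all 10908 genes tested, 3.29% rose and 3.87% fell, 7.16% together; of all tested probe sets, 5.68% were called in either direction. At an unadjusted p below 0.05, which 20.3% of all genes passed in either direction, 5 of the 8 were higher and 0 lower. An ordinary two-sample test gave 3 and 0 unadjusted, and 0 in either direction after adjustment. Over all 10908 genes, that test gave 953 higher and 955 lower unadjusted. For 6 of the 8 genes every knockout pool lay above every wild-type pool, which held for 13.0% of all genes. The reverse order, found for 12.6% of all genes, held for 0 of the 8. The median log2 fold change of the 8 was 0.29, against 0.02 for all genes.

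Acot1, which hydrolyses long-chain acyl-CoA in the cytosol, read 7.68, 7.61 and 7.74 in wild-type pools 1 to 3 and 9.14, 8.66 and 9.14 in knockout pools 1 to 3. The groups were far apart, and knockout pool 2 was the lowest of its group. The rise was 1.30 on the log2 scale, or 2.46-fold (SE 0.12, adjusted p = 1.50e-06 by limma, n = 3 pools per genotype). Without knockout pool 1 it was 1.22. As for every gene here whose groups do not overlap, the exact permutation p (two-sided) was 0.1, the smallest that 3 pools against 3 can give. In bulk tissue, more RNA per cell and a larger share of cells that express a gene cannot be told apart.

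The other cytosolic members gave small differences. Acot7, known from brain as a hydrolase of arachidonoyl-CoA, read 7.97, 7.69 and 7.93 in wild-type and 8.11, 8.04 and 7.99 in knockout pools. All knockout pools lay above all wild-type pools, but by little, and the difference of 0.18 was not called (95% interval -0.04 to 0.40, adjusted p = 0.389 by limma). Without wild-type pool 2, the lowest, it was 0.09 (adjusted p = 0.803). Acot12, a cytosolic acetyl-CoA hydrolase, read 10.65, 10.71 and 10.67 in wild-type and 10.81, 10.71 and 10.74 in knockout pools at its brightest probe set. These values nearly touch, with a difference of 0.08 (95% interval -0.06 to 0.21, adjusted p = 0.595). Its second tested probe set differed by 0.13 (95% interval -0.07 to 0.32), with groups that overlap. Another was called Absent on every array and was not tested.

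**Figure D1:**
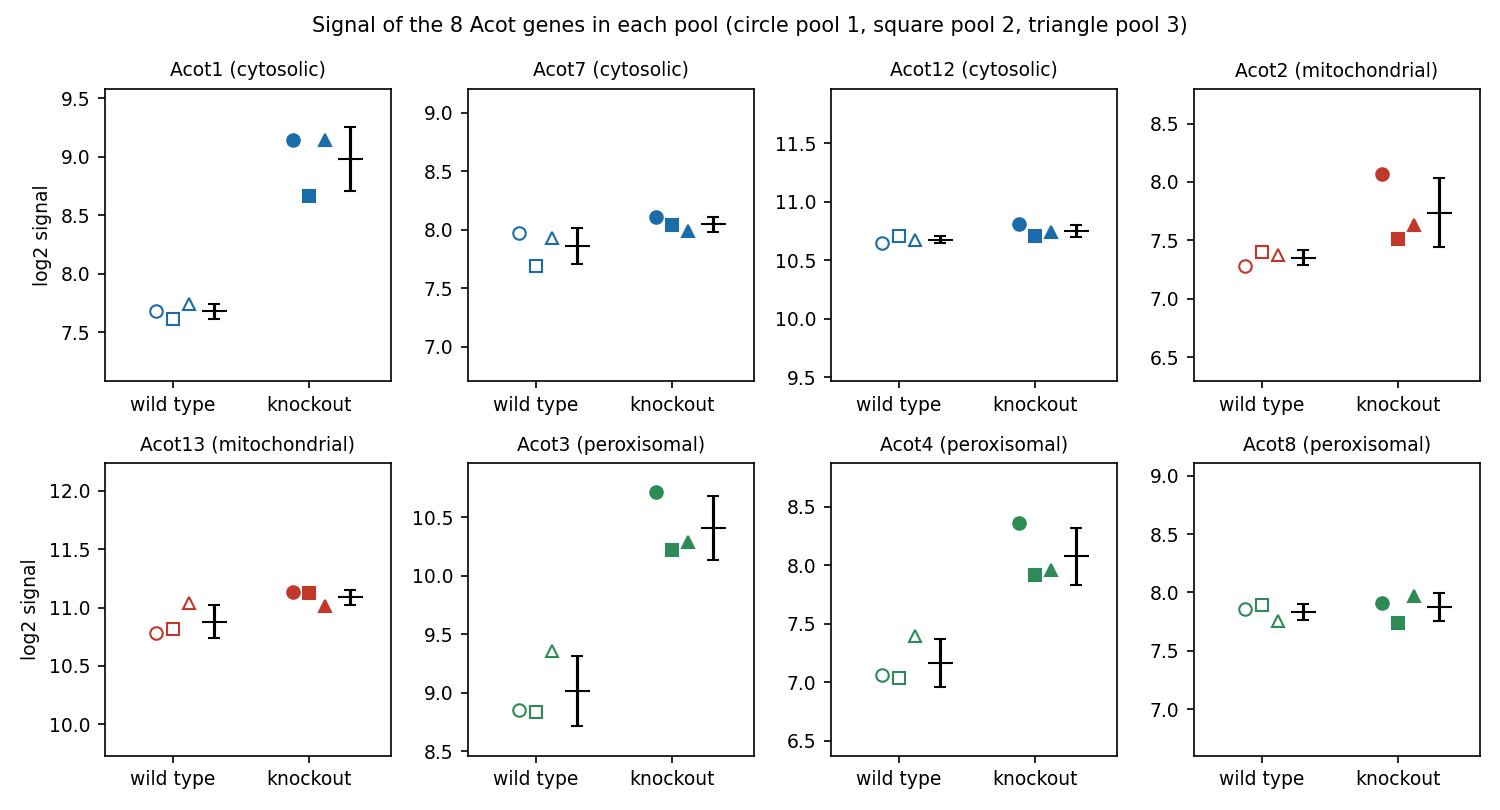
Log2 signal of each Acot gene at its brightest tested probe set, with 1 panel per gene and the same span on every vertical axis. Open symbols are wild-type and filled symbols knockout pools, bars show the mean and SD of 3 pools, and the gap between groups is widest for Acot1, Acot3 and Acot4.

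Among the peroxisomal members, Acot3 and Acot4 rose and Acot8 barely moved. Acot3, which acts on long-chain acyl-CoA in the peroxisome, read 8.85, 8.84 and 9.36 in wild-type and 10.72, 10.22 and 10.29 in knockout pools. Wild-type pool 3 was the highest of its group and knockout pool 1 the highest of all, without overlap. The rise was 1.40, or 2.63-fold (SE 0.14, adjusted p = 3.29e-06 by limma), and 1.24 without knockout pool 1. Its only probe set has the suffix _s_at, which marks probes that can bind more than 1 transcript, so signal of other type I members may be included.

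Acot4, which in mouse cleaves succinyl-CoA and dicarboxylic acyl-CoA esters in the peroxisome, read 7.06, 7.04 and 7.40 in wild-type and 8.36, 7.92 and 7.96 in knockout pools. The pattern over pools was that of Acot3, with wild-type pool 3 and knockout pool 1 highest in their groups. It rose by 0.91, or 1.89-fold (SE 0.13, adjusted p = 0.000261 by limma), and by 0.78 without knockout pool 1. Its second probe set read 7.17, 7.09 and 7.25 against 8.00, 7.74 and 7.81, also a rise, of 0.68 (SE 0.11, adjusted p = 0.000646 by limma).

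Acot8, a peroxisomal type II enzyme with broad substrate range, read 7.86, 7.89 and 7.76 in wild-type and 7.91, 7.74 and 7.97 in knockout pools. The groups were interleaved, and the lowest reading of all was that of knockout pool 2. The difference was 0.03 (95% interval -0.18 to 0.24, adjusted p = 0.907 by limma), so the interval leaves out changes of the size seen in Acot3 and Acot4.

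The mitochondrial members were not called. Acot2, the matrix counterpart of Acot1, read 7.28, 7.40 and 7.38 in wild-type and 8.07, 7.51 and 7.63 in knockout pools at its brightest probe set. Every knockout pool was above every wild-type pool, but most of the gap came from knockout pool 1. The difference was 0.38 (95% interval 0.11 to 0.65, adjusted p = 0.108 by limma). It was 0.21 without knockout pool 1 (adjusted p = 0.396) and 0.44 without knockout pool 3, where it passed (adjusted p = 0.0495); over all alternatives the adjusted p ran from 0.0495 to 0.437. A dim second probe set of Acot2, called Present on 1 array of each genotype and not tested, read 4.49, 2.92 and 4.40 in wild-type and 5.71, 5.08 and 5.48 in knockout pools. That is a difference of 1.49, without overlap of the groups.

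Acot13, a small thioesterase of mitochondria and cytosol also called Them2, read 10.78, 10.82 and 11.04 in wild-type and 11.13, 11.12 and 11.01 in knockout pools. Knockout pool 3 fell just below wild-type pool 3, so the groups overlapped by a narrow margin. The difference was 0.21 (95% interval 0.05 to 0.36, adjusted p = 0.126 by limma). It passed without wild-type pool 3 (0.29, adjusted p = 0.0362) and without knockout pool 3 (0.25, adjusted p = 0.0441), with a range of adjusted p over all alternatives from 0.0362 to 0.470.

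A further probe set is assigned by the annotation to Acot1 and Acot2 jointly and was left out of the values of either gene. It read 7.16, 6.84 and 6.93 in wild-type and 8.49, 7.92 and 8.39 in knockout pools. That is a rise of 1.29 (SE 0.14, adjusted p = 9.20e-06 by limma), and which of the pair contributed cannot be told from it. In the authors' deposited table, the absolute fold changes of the brightest probe sets were 2.46 for Acot1, 2.63 for Acot3 and 1.89 for Acot4. Their corrected p-values there were 0.185, 0.234 and 0.283, and 0.185 was the lowest of the 12 member probe sets. The largest absolute fold change of the 12 was 2.8, at the dim probe set of Acot2 (the authors' corrected p-value 0.5).

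**Figure D2:**
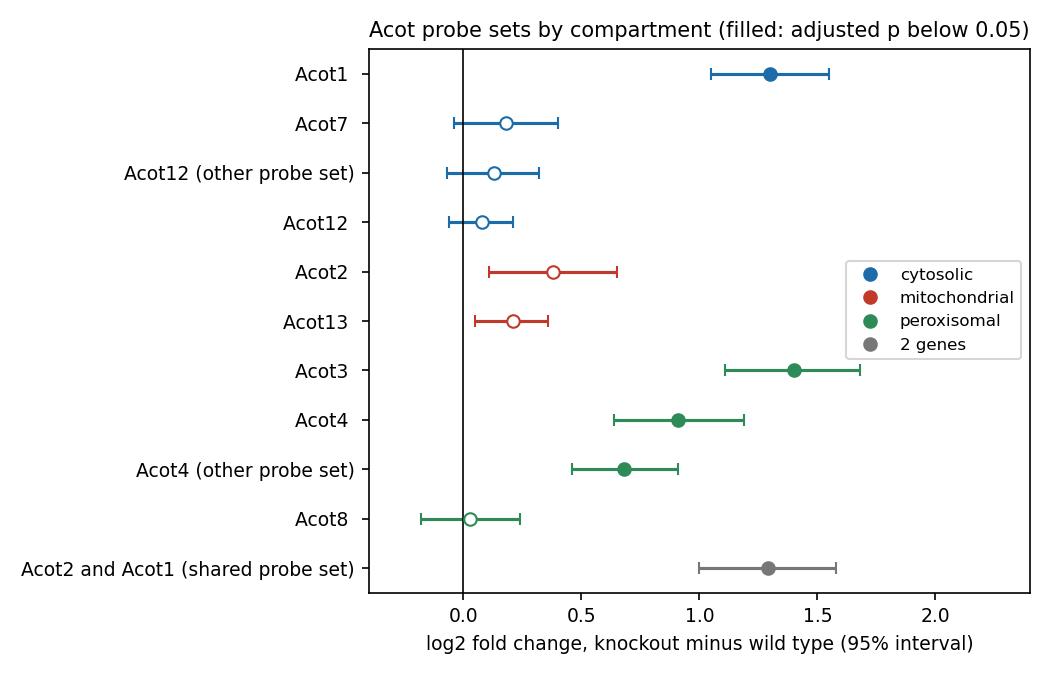
Log2 fold change of each tested Acot probe set, knockout minus wild type, with the 95% interval from the moderated fit and colour for the compartment of the enzyme. Filled points passed an adjusted p below 0.05: Acot1 at 1.30, Acot3 at 1.40, Acot4 at 0.91 and 0.68, and the probe set shared by Acot1 and Acot2 at 1.29.

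Set out by compartment, the mean log2 fold change was 0.52 for the cytosolic, 0.29 for the mitochondrial and 0.78 for the peroxisomal genes. These means hide a wide spread within compartments. Cytosolic genes ran from 0.08 in Acot12 to 1.30 in Acot1, and peroxisomal genes from 0.03 in Acot8 to 1.40 in Acot3. The mitochondrial genes lay at 0.21 and 0.38, with Acot2 read at its tested probe set only. No test was made between compartments, because the genes were chosen with results known and each class holds only 2 or 3 of them.

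Within pools, the log2 difference between 2 genes was taken for 6 pairs of the family, and its shift from wild type to knockout was tested. Only the shift is given, since the difference itself depends on the probes. The probe set of Acot3 may also hold signal of other type I members. Acot1 gained 0.92 on Acot2, 1.22 on Acot12 and -0.10 on Acot3. Acot3 gained 1.19 on Acot13, and Acot4 gained 0.88 on Acot8. For the 4 shifts of 0.88 and more the genotypes did not overlap, and the exact permutation p was 0.1, the smallest possible, or 0.15 when adjusted over the 6 pairs. Each of these 4 pairs sets a called gene against an uncalled one, so the shifts restate the single-gene differences and are no separate results. The shift of Acot1 against Acot3 had an exact permutation p of 1, and it ran from -0.24 to -0.01 with single pools left out. Acot2 gained 0.17 on Acot13 (exact permutation p = 0.4), which was 0.03 without knockout pool 1 and 0.30 without knockout pool 2.

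The genes that rose share a place in the genome. RefSeq places Acot2, Acot1, Acot4, Acot3, Acot5 and Acot6 in that order on chromosome 12 with no other protein-coding gene between them. Acot7 lies on chromosome 4, Acot8 on chromosome 2, and Acot12 and Acot13 on chromosome 13. Within the cluster the rise was not uniform at the tested probe sets. Acot1, Acot4 and Acot3 in its middle rose, and Acot2 at one end did not pass. A dim, untested probe set of Acot2 was higher in knockout by 1.49, so the place of Acot2 rests on 1 tested probe set. At the other end, Acot6 went from 5.94 ± 0.19 to 5.76 ± 0.10 (SD, n = 3 pools, adjusted p = 0.560 by limma), and Acot5 was called Absent on every array. The 6 nearest tested genes on each side, chosen after the values were seen, had log2 fold changes from -0.28 in Dcaf4 to 0.26 in Ptgr2. Of these 12, 0 were called by limma. With 7.16% of all genes called, a count of 0 among so few genes does not set them apart. Their smallest adjusted p was 0.0868, in Ptgr2, which also had the smallest unadjusted p, 0.00644.

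**Figure D3:**
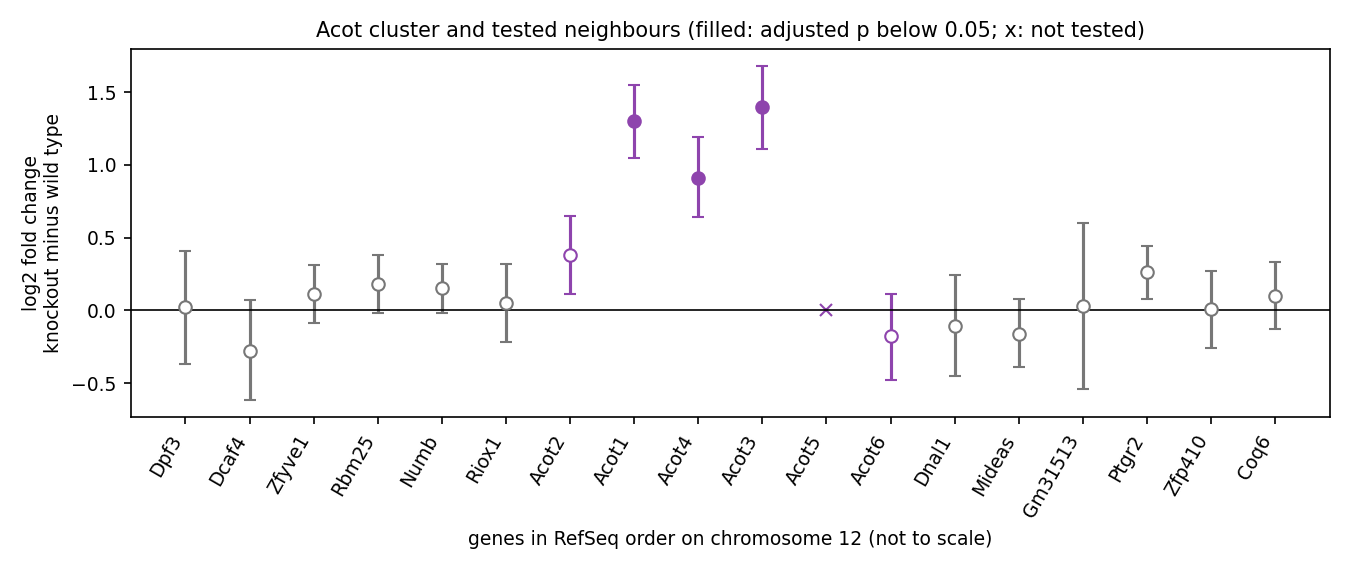
Log2 fold change, knockout minus wild type, of the Acot genes on chromosome 12 (purple) and of 6 tested genes on each side (grey), in genome order, with 95% intervals. Acot1, Acot4 and Acot3 stand at 1.30, 0.91 and 1.40, while the flanking genes lie between -0.28 and 0.26.

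The promoters printed above were searched on both strands for the response element of PPAR alpha, taken as 2 copies of AGGTCA with 1 base of any kind between them, and mismatches were counted over the 12 fixed letters. The search was added after the values were seen. Acot1 and Acot3, which rose most, had no match with 3 mismatches or fewer in this window. Acot4 had 1 with 2 mismatches on the minus strand, from base -13 of the start site, and 3.24% of all 32851 promoters held a match at least as close. The closest match among the members was that of Acot12, which was not called: 1 mismatch, on the minus strand from base -110, as close as in 0.484% of promoters. These matches both contain TGACCT, the half-site AGGTCA read on the other strand, which was found in 14.0% of promoters. Promoters of 7 members were in the table, and Acot2 had a match with 3 mismatches, as had 21.3% of promoters, while Acot7 and Acot8 had none.

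A CCAAT box on the plus strand lay at base -79 in Acot1, -77 in Acot3 and -85 in Acot4. Acot2 had none on that strand and 1 on the minus strand from -244, and Acot12 and Acot7 had none on either. Acot8, which did not move, had 3. A CCAAT box on either strand was present in 33.8% of all promoters. In overall sequence the 4 type I promoters had 49.5% to 51.9% identical bases in 6 pairwise alignments, a range that overlaps the 44.4% to 51.6% of the 15 pairs that include Acot7, Acot8 or Acot12. Of the other motifs searched on both strands, TATAAA (12.4% of promoters) and CACGTG (6.02%) occurred in Acot4 alone among the members, and GGGCGG (32.7%) in Acot1, Acot7, Acot8 and Acot12. A match of letters is a description of the sequence and does not show binding.

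The knockout pools kept a like order at the type I probe sets. Knockout pool 2 was the lowest knockout pool at all 6 tested probe sets of Acot1, Acot2, Acot3 and Acot4, the shared one included, and at 2 of the 5 type II probe sets, those of Acot8 and the brightest of Acot12. Over all tested probe sets, pool 2 was the lowest knockout pool in 18.1% and pool 3 in 67.8%. Knockout pool 1 was the highest at 5 of the 6 type I and 4 of the 5 type II probe sets, and at 56.0% of all tested probe sets. Some of the type I probe sets may bind the same transcripts, so they are not independent, and the difference between the types was not tested.

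Some known targets of PPAR alpha outside the family rose as well, by smaller amounts. Of 23 tested genes of a list of 27, 12 rose and 0 fell by limma, with a median log2 fold change of 0.22, against 3.29% of all genes rising. At an unadjusted p below 0.05, 15 were higher and 2 lower. The 2 lower genes were Fabp1, at -0.12, and Plin2, at -0.14, each with every knockout pool below every wild-type pool. Neither was called (adjusted p = 0.0574 and 0.146 by limma). An ordinary two-sample test gave 12 and 2 unadjusted, and 0 after adjustment. Slc22a5, the carnitine importer, had the largest change of the list, from 7.70 ± 0.04 to 8.23 ± 0.15 (SD, n = 3 pools), a rise of 0.53 (SE 0.10). Cyp4a14, a fatty acid hydroxylase, rose by 0.43 (SE 0.08), Pex11a, which drives peroxisome division, by 0.46 (SE 0.09), and Slc25a20, the mitochondrial carnitine carrier, by 0.38 (SE 0.06), with adjusted p from 0.00129 to 0.00400. The rises of Acot1, Acot3 and Acot4, at 0.91 to 1.40, were thus larger than any in this list. Pdk4, a kinase that inhibits pyruvate dehydrogenase, went from 6.81 ± 0.28 to 6.78 ± 0.23 (SD, n = 3 pools, adjusted p = 0.944 by limma). The count of 12 was 7 without wild-type pool 1, 8 without knockout pool 1 and 0 without an intensity trend in the variance.

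Peroxisomal beta-oxidation, the pathway in whose compartment Acot3, Acot4 and Acot8 act, had 6 of 16 tested genes higher and 0 lower, with a median of 0.14. Over all genes, 3.29% were called higher and 3.87% lower. The lists overlap: Acaa1a, Acaa1b, Ehhadh and Pex11a are 4 of these 6 genes and also 4 of the 12 above, so the counts are not separate results. At an unadjusted p below 0.05, 9 were higher and 0 lower, and 10 and 0 by an ordinary two-sample test. Crat, which moves short acyl groups from coenzyme A to carnitine, rose by 0.57 (SE 0.11), Pex11a by 0.46 and Eci2, an enoyl-CoA isomerase, by 0.34 (SE 0.06). Acaa1a, a peroxisomal thiolase, rose by 0.28 (SE 0.07). The count was 3 without wild-type pool 1, without wild-type pool 3 or without knockout pool 1.

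Other enzymes that cleave acyl-CoA or coenzyme A mostly showed no called change. Of 12 tested genes, 1 rose and 0 fell, with a median of 0.10. That count is near the 7.16% of all genes called in either direction. At an unadjusted p below 0.05, 2 were higher and 0 lower, where 20.3% of all genes passed in either direction. The gene that rose was Nudt19, a peroxisomal coenzyme A diphosphatase, from 9.59 ± 0.15 to 10.10 ± 0.15 (SD, n = 3 pools), by 0.52 (SE 0.09, adjusted p = 0.00213 by limma). Acot9, a mitochondrial thioesterase, gave -0.12 (adjusted p = 0.710), and Baat, which conjugates bile acids, 0.17 (adjusted p = 0.310). Without knockout pool 3 the count was 4, and without knockout pool 1 it stayed at 1. In coenzyme A synthesis, Ppcs, a step after pantothenate kinase, rose by 0.37 (SE 0.09, adjusted p = 0.0214 by limma), the only called gene of 9 tested. With 7.16% of all genes called, 1 call among so few genes does not set the list apart. At an unadjusted p below 0.05, 5 of the 9 were higher and 2 lower, and 2 and 1 by an ordinary two-sample test. The call of Ppcs was lost without wild-type pool 1 or 3 or knockout pool 1 or 2, while 3 genes passed without knockout pool 3.

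Acyl-CoA synthetases, which run the opposite reaction, went both ways. Of 13 tested genes of a list of 18, 3 fell and 2 rose, with a median of 0.01. Over all genes, 3.87% fell and 3.29% rose. Acsl1 and Acss3 had no probe set with 1 symbol, and Acsl6, Acsm2 and Acss1 did not pass the filter, so none of these was read. Acss2, which activates acetate in the cytosol, fell by 1.46 (SE 0.11, adjusted p = 1.28e-07). Acsl3 fell by 0.67 (SE 0.11) and Acsl5 fell by 0.43 (SE 0.06), both long-chain synthetases. The medium-chain synthetase Acsm3 rose by 0.35 (SE 0.08), and 1 more of that family, Acsm5, by 0.28 (SE 0.07). The count of 5 was 3 without wild-type pool 1 or without knockout pool 2, and 4 without knockout pool 1. At an unadjusted p below 0.05, 3 were higher and 4 lower, and 3 and 3 by an ordinary two-sample test.

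**Figure D4:**
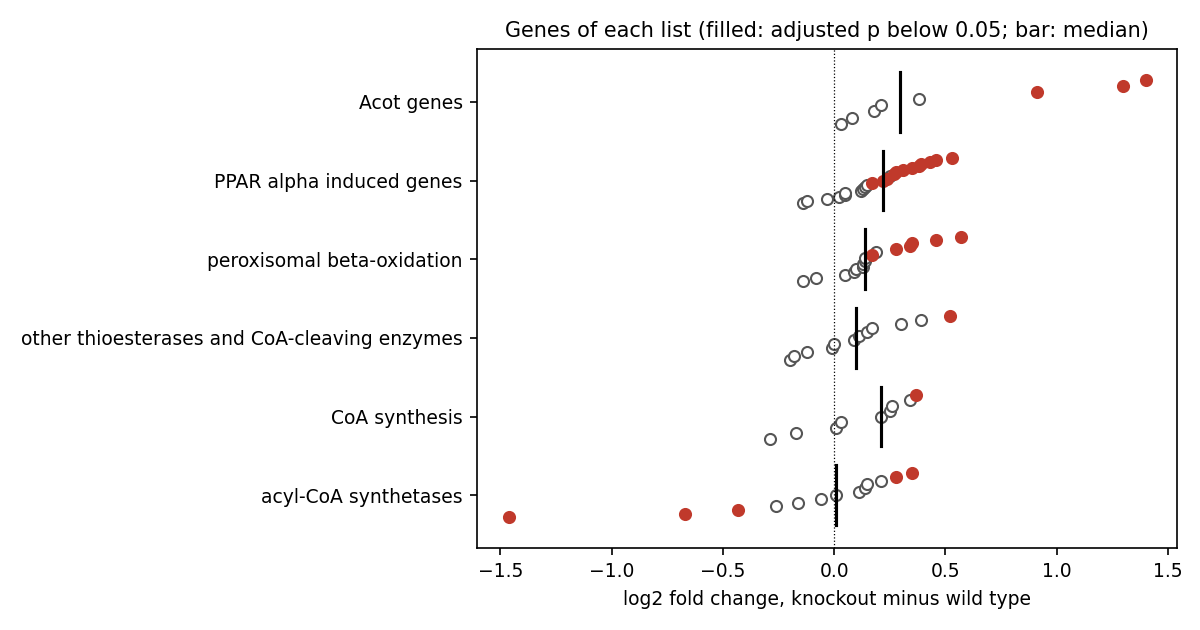
Log2 fold change, knockout minus wild type, of each tested gene in the Acot family and in 5 related lists, with filled points at an adjusted p below 0.05 and a bar at each median. The highest Acot genes, at 0.91 to 1.40, lie to the right of every gene in the other lists, and Acss2 lies far to the left at -1.46.

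Genes with the pattern most like that of each called member were found by the root mean square difference of centred log2 values over the 6 pools, among 7559 genes with a mean linear signal of at least 100. For Acot3 the nearest were Orm1, an acute phase protein, at 0.0983, then Nnmt, a nicotinamide methyltransferase, at 0.113, and Gsta2, a glutathione transferase, at 0.170. For Acot4 they were the growth factor Nrg4 at 0.111, the lectin Lgals4 at 0.114 and the apolipoprotein Apoa4 at 0.119. For Acot1 the nearest was Acot3 itself at 0.204, followed by Nnmt at 0.223 and Apoa4 at 0.224. Nrg4 rose by 0.92 (SE 0.15) and Lgals4 by 0.71 (SE 0.13).

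Markers of other cells moved with genotype in some lists. Neutrophil markers summed to a linear signal of 488 to 557 across wild-type pools, and of 573 to 647 across knockout pools, with 6 of 7 genes called Present on some array. Of 4 tested, S100a9 rose by 0.65 (SE 0.13) and S100a8 by 0.43 (SE 0.11), while Camp differed by -0.04 and was not called. The linear signal was also summed for the other cell types. The sum of adipocyte markers was 517 to 599 for wild type and 669 to 697 for knockout, with Fabp4 up by 0.38 (SE 0.09) but Adipoq, Lep and Retn called Present on no array. For endothelial markers the sums were 5290 to 5410 for wild type and 4790 to 4980 for knockout, with all 7 called Present on some array. Of these, Clec4g fell by 0.27 (SE 0.07) and Cdh5 by 0.32 (SE 0.09), and 0 rose. Stellate cell markers summed to 9610 to 9740 and 8920 to 9470 respectively, with Des called Present on no array. Their called genes went both ways: Rgs5 rose by 0.35 (SE 0.08), while Col3a1 fell by 0.26 (SE 0.07) and Reln by 0.24 (SE 0.06). Kupffer cell marker sums overlapped, at 6510 to 7450 and 6680 to 6760, but Marco fell by 0.44 (SE 0.11), the only called gene of 10 tested. The part of these shifts in the Acot results was not tested. Of 5 tested genes known to be higher in female liver, Cyp2b13 and Cyp17a1 rose by 0.50 and 0.53 and Hao2 fell by 0.53, while 0 of 4 male-biased genes were called by limma, 1 of them being higher at an unadjusted p below 0.05 and 0 called by an ordinary two-sample test.

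**Figure D5:**
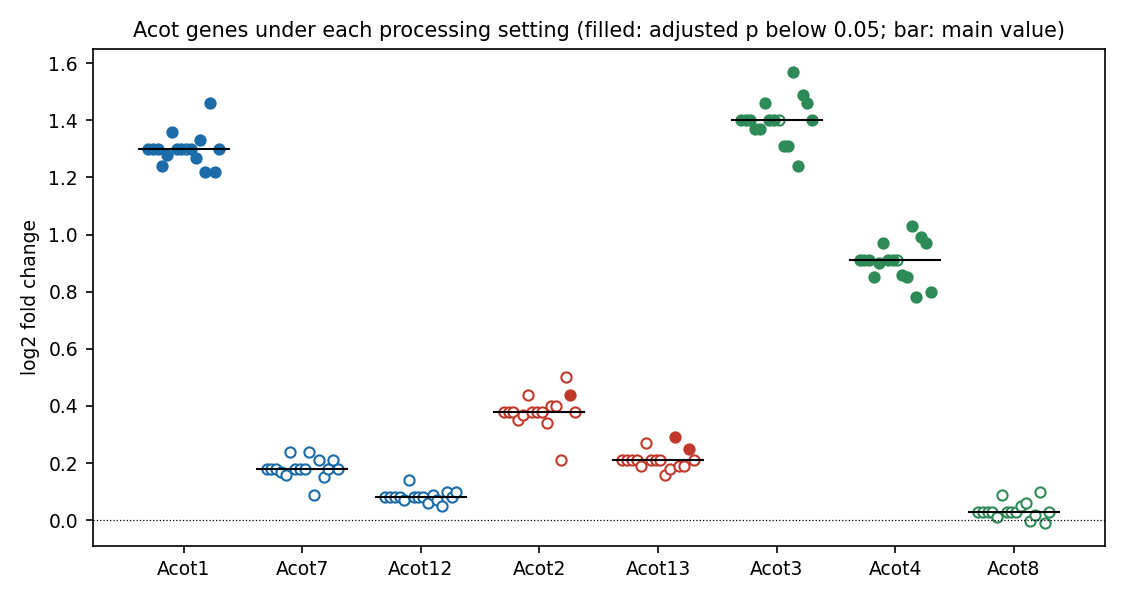
Log2 fold change of each Acot gene in the main setting and 15 alternatives, with a bar at the main value and filled points at an adjusted p below 0.05. Acot1 ran from 1.22 to 1.46, Acot3 from 1.24 to 1.57 and Acot4 from 0.78 to 1.03, above all values of the other 5 genes.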

How the data were processed

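RNA of 6 liver pools was hybridised to Affymetrix arrays. Per the submitters' processing notes, MAS5 gave the signals and detection calls; its version and its scaling were not found in the labels or headers. For 45101 probe sets, the deposited workbook lists signals as log2 values, with the call and detection p-value of each, and the authors' own comparison as p-values and an absolute fold change (a ratio). The deposited series matrix repeats the log2 values to within 4.91e-07 and was not analysed further.

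The deposited log2 values were used as they are. Of the probe sets that are no controls (64 are), the 22482 called Present by 3 or more of the 6 arrays were tested. The genotypes were compared by limma 3.58.1 in R 4.3.3, with an intensity trend and Benjamini-Hochberg adjustment over the 22482. SEs, 95% intervals and adjusted p-values of genes are those of this model. In simulated data with 200 changed probe sets, 45.3% of 1.5-fold, 78.6% of 2-fold and 97.6% of 4-fold changes were recovered among 22482. The number of arrays limits the precision, and dim probe sets are least precise.

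Gene names came from the platform annotation, where 34958 probe sets have 1 symbol, 932 several and 9211 none; only the first kind is named. A gene was read at its brightest tested probe set, with the suffix _x_at taken last. Promoters came from RefSeq (GRCm38.p6) and were aligned with Biopython 1.88. The files name no genome build.

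The members and gene lists were chosen with earlier results of these data known. The text names all members and Dbi, up to 4 called genes with the smallest p per related list and up to 3 per marker list. It also names the untested synthetases and the 3 genes nearest in pattern to each called member. Others (Pdk4, Fabp1, Plin2, Acsm5, Acaa1b, Ehhadh, Acot5, Acot6, Acot9, Baat, Camp, Eif2s3y, Kdm5d, Uty, Xist and the chromosome 12 neighbours) were chosen after their values were seen. Pool numbers 1 to 3 occur in both genotypes.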

Additional observations from a re-analysis of the deposited data

How the results depend on the processing

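Acot1, Acot3 and Acot4 kept their direction in all 15 alternatives and their call in all but the ordinary two-sample test, where their adjusted p were 0.108, 0.143 and 0.176 and 0 members passed. The count of 3 members was 3 to 5 with single pools left out. The count of changed probe sets, 1277, was 378 without an intensity trend, 30 with the ordinary test and 639 to 3010 with single pools left out. Without the trend, the counts of other thioesterases, synthetases, coenzyme A synthesis, PPAR alpha induced genes and peroxisomal beta-oxidation were 0, 2, 0, 0 and 0, and with the ordinary test 0 for each. For coenzyme A synthesis, quantile normalization and median centring each gave 2. With single pools left out, these 5 counts ran from 1 to 4, 3 to 6, 0 to 3, 7 to 13 and 3 to 7. Acot8, not called, ran from -0.01 to 0.10 with single pools left out. The other uncalled members ran from 0.21 to 0.50 (Acot2), 0.09 to 0.24 (Acot7), 0.05 to 0.10 (Acot12) and 0.16 to 0.29 (Acot13). Acot8 changed sign when wild-type pool 3 (-0.0039) or knockout pool 3 (-0.01) was omitted. Dbi fell by 10.54, or by 4.0 over probe sets Present on all 6 arrays and by 5.63 as the mean of its probe sets. The cause of these shifts was not tested.

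Same-numbered pools did not deviate together, with correlations of -0.03, -0.01 and -0.08, and differently numbered pools gave -0.06 to 0.09. Such correlations show no joint deviation but cannot exclude that same-numbered pools were matched. With pool number as a replicate block, 1370 probe sets and the same 3 members were called, and the 3 pairs of pools allow no exact p below 0.25. Compartment means and pair differences kept their sign in every alternative run. Averaging the probe sets of each gene gave no count of probe sets.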
